A study of Mus musculus with 9 samples.

Results

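The 6 mouse genes that encode conventional actin, Actb, Actg1, Acta1, Acta2, Actc1 and Actg2, were followed through exit from self-renewal in embryonic stem cells. They were chosen by name as the complete actin isoform family and are 6 of the 35896 genes in the data. All libraries came from E14, a mouse embryonic stem cell line grown on gelatin in serum-containing medium. Control cells with LIF2i were kept in the cytokine LIF with 1 µM PD0325901, which inhibits MEK, and 1 µM CHIR99021, which inhibits glycogen synthase kinase 3 beta. The second control group, without LIF2i, lacked all 3 agents for 72 h, which lets the cells differentiate spontaneously. CK666 cells also lacked LIF2i for 72 h and received CK666 at 80 µM, which blocks the Arp2/3 complex, from the moment of withdrawal. The drug was dissolved in DMSO, a DMSO treatment of the controls is not mentioned, and so drug and solvent cannot be told apart. Poly-A RNA was sequenced from 3 paired biological replicates of each group, 9 libraries in all.

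Actin is the protein of microfilaments. It cycles between a monomer bound by proteins such as profilin and cofilin and a filament that the Arp2/3 complex can branch. Vertebrates carry a cytoplasmic pair, beta-actin from Actb and gamma-actin from Actg1, which are present in nearly every cell. They also carry 4 muscle actins, skeletal (Acta1), cardiac (Actc1), vascular smooth muscle (Acta2) and enteric smooth muscle (Actg2). Actin monomers hold the coactivators MRTF-A and MRTF-B away from serum response factor (SRF), so that polymerisation releases them, and SRF binds a DNA element called the CArG box near many actin genes.

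The cytoplasmic actin proteins are nearly identical and differ at the amino terminus, so the first 60 coding bases of both genes are shown, with the 9 positions that differ in capitals.
Actb: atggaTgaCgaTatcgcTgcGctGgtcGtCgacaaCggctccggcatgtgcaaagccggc
Actg1: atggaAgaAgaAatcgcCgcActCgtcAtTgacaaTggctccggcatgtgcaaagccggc
Over the 1128 coding bases of each, Actb and Actg1 were 88.7% identical, the highest identity between any actin genes, and the lowest identity in the family was 81.5%. Likeness of this kind bears on how reads were divided. Of all 31-base words in the main Actb transcript, 7.20% also occur in another actin gene and 35.1% in any other annotated gene. For Actg1 these shares were 5.98% and 57.1%, most of the latter in processed pseudogenes. The muscle actins were better separated, with 0.832% to 4.45% of words shared with any other gene. Genes with a stretch at least 90% identical to Actb or Actg1 were estimated to hold 2.32% to 6.06% of the joint counts for Actb and 0.0137% to 0.166% for Actg1. For Actb, most of these counts fell on Lrrc58, a separate protein-coding gene, with 843 to 2731 per library. The pseudogene Gm15725 held the rest, 65.1 to 270 in replicate 1 and at most 2.41 in replicates 2 and 3. Adding the counts of all such genes to the actin genes moved no actin call across the threshold.

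CArG boxes are shown next because Srf and several of these actin genes moved in the same comparison. The element was taken as CC and GG around 6 bases that are each A or T, and it reads the same way on both strands. It was searched in the 250 bases before the RefSeq start of each gene in GRCm38.p6, which were at hand for Actg1, Acta1, Acta2 and Actc1. The closest match of each gene, on the minus strand like all 4 genes, stands in capitals within 30 bases, and for Acta2 both matches are given.
Actg1, chr11:120348566-120348595: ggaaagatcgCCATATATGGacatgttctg
Acta1, chr8:123894829-123894858: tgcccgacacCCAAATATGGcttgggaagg
Actc1, chr2:114052903-114052932: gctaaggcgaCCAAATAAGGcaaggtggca
Acta2, chr19:34255438-34255467: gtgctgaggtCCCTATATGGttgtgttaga
Acta2, chr19:34255388-34255417: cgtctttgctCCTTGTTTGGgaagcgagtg
The elements of Actg1, Acta1 and Actc1 match exactly and begin 90, 73 and 47 bases before the start. The Acta2 elements begin 84 and 34 bases before it, and each has 1 other base within the core. Where 1 other base is allowed, Acta1 held 3 matches in all and Actc1 held 4, and only the exact match of each is shown. Of 32851 promoters of this length in the same table, 1.47% held an exact element and 8.59% held one that allows 1 other base. At least 2 of the latter kind were held by 0.670%. In GENCODE M21 the Actg1 and Acta1 elements lie upstream of the annotated gene. The Actc1 element lies in an intron of Actc1, because a longer transcript begins further upstream, and both Acta2 elements lie in an exon of Acta2. A match is a description of the letters and was not tested for binding.

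Libraries held 16894327 to 22550952 estimated counts, divided among transcripts by kallisto. The replicate 1 libraries of all 3 groups stood apart from the others. They had 15690 to 17605 genes above 0, against 18166 to 18749 in replicates 2 and 3, and they had the highest Actb of their groups and, without LIF2i, the lowest Acta1, Acta2 and Actc1. The cause was not tested. Calls on the actin genes are given with and without these libraries, and those on the other gene lists only in part. TPM, transcript abundance divided by effective length and scaled to a fixed total, is used below for levels and for comparing genes. Fold changes come from edgeR's quasi-likelihood test on counts with the replicate number as a block, with p-values adjusted by Benjamini-Hochberg over all 14648 tested genes. A call is an adjusted p under 0.05.

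The 2 cytoplasmic genes supplied nearly all actin mRNA in every library. Actb ranked between 5 and 183 among all genes by TPM, and Actg1 between 49 and 382. With LIF2i, Actb exceeded Actg1 in all 3 libraries, whereas without LIF2i Actg1 exceeded Actb in replicates 2 and 3.

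Actg1, which encodes gamma-actin, spans chr11:120345690-120348542. Its level was 1605, 321 and 387 TPM with LIF2i in replicates 1, 2 and 3. Without LIF2i it was 2703, 1978 and 2533 TPM, and with CK666 it was 1626, 1063 and 1757 TPM. Every control library without LIF2i lay above every library with it, and the 3 CK666 libraries lay below the 3 control libraries without LIF2i. Withdrawal raised Actg1 by 1.92 ± 0.37 (SE) on the log2 scale (adjusted p = 0.00402). Within the same replicate number the TPM ratio was 1.68, 6.16 and 6.55, so the rise was smallest in replicate 1, whose level with LIF2i was already high. Without replicate 1 the log2 rise was 2.59 (adjusted p = 1.31e-06), and without replicate 2 it was 1.63 and no longer called (adjusted p = 0.0635).

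Actb, which encodes beta-actin and is often used as a reference transcript, spans chr5:142903115-142906754. It stood at 5732, 679 and 891 TPM with LIF2i, at 3751, 1303 and 1549 TPM without it, and at 2770, 905 and 1327 TPM with CK666. The replicate 1 library was the highest of each group, and the groups overlapped in all comparisons. From with to without LIF2i, Actb was lower in replicate 1 (TPM ratio 0.654) and higher in replicates 2 and 3 (1.92 and 1.74). The fitted change on withdrawal was 0.32 ± 0.24 (SE) on the log2 scale and was not called (adjusted p = 0.331). Without replicate 1 it was 0.75 and called (adjusted p = 0.000255), and the same held when only the replicate 1 library with LIF2i was left out (0.75, adjusted p = 0.000237).

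**Figure D1:**
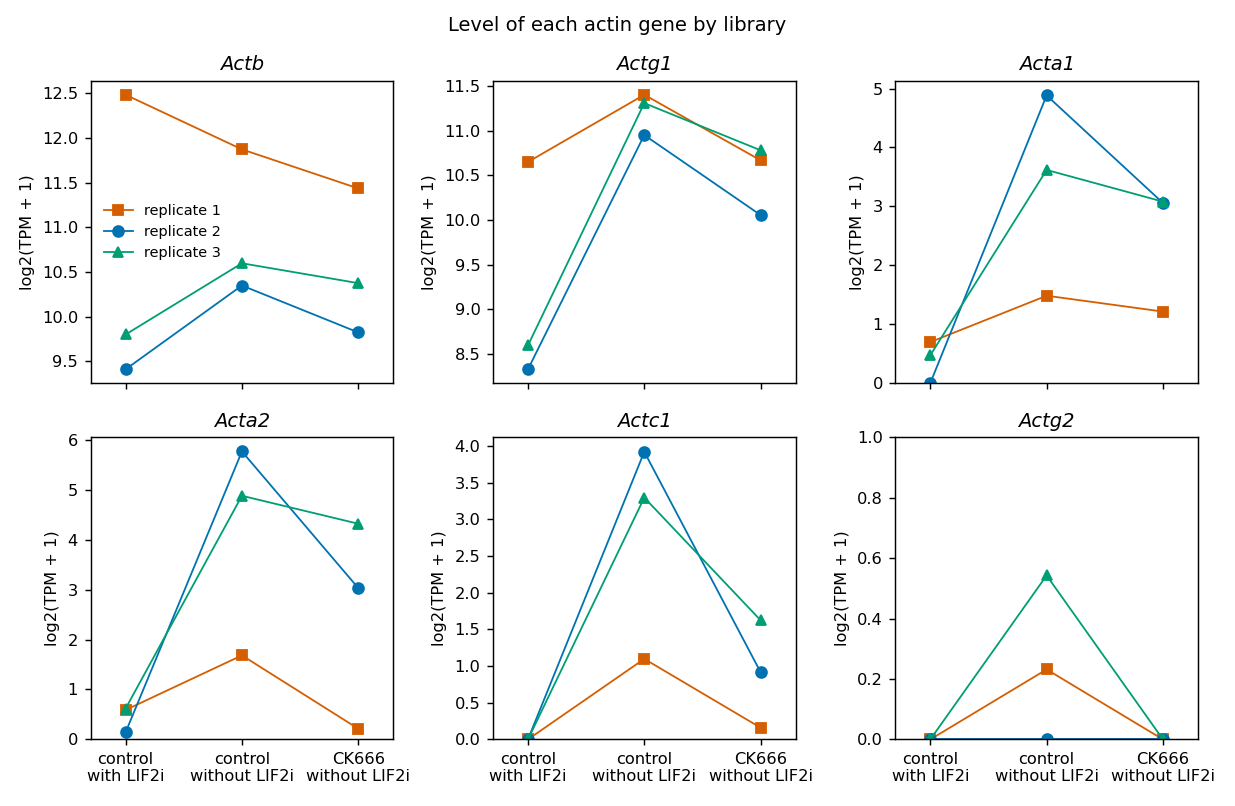
Levels of the 6 actin genes as log2(TPM + 1) in each library, with 1 line per replicate number across the 3 groups and a separate vertical scale per gene. Actg1 is higher in every control library without LIF2i than in any with it, replicate 1 (squares) is highest for Actb and, without LIF2i, lowest for Acta1, Acta2 and Actc1, and Actg2 stays close to 0.

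The balance between the cytoplasmic genes shifted in every replicate number. The ratio of Actb to Actg1 TPM was 3.57, 2.12 and 2.30 with LIF2i. It was 1.39, 0.659 and 0.611 without LIF2i, and 1.70, 0.851 and 0.755 with CK666. In each replicate number the ratio was highest with LIF2i, lowest without it, and in between with CK666. On the log2 scale the means were 1.37 ± 0.41, -0.28 ± 0.65 and 0.04 ± 0.63 (SD, n = 3). Withdrawal moved the mean by -1.65, and CK666 cells differed from control cells without LIF2i by 0.32. An exact permutation test of differences among the 3 groups, with labels exchanged within each replicate number, gave p = 0.0278, the smallest this design allows (0.0486 adjusted over 7 measures of actin make-up). Exchanging labels without regard to the replicate number gave an exact permutation p of 0.0321 (0.0917 adjusted), past the threshold only before adjustment. Pairwise comparisons cannot be resolved in this way, since 3 pairs allow no exact p below 0.25. Unlike the level of Actb, the ratio kept its order in replicate 1.

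**Figure D2:**
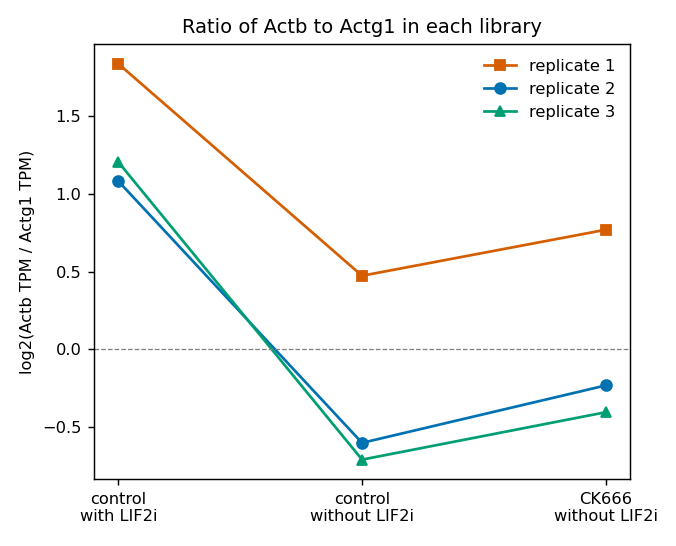
Log2 of the ratio of Actb TPM to Actg1 TPM in each library, with 1 line per replicate number across the 3 groups and a dashed line where both genes are equal. All 3 lines fall on LIF2i withdrawal and lie higher with CK666 than in the matched control without LIF2i, and replicate 1 lies above the others throughout.

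As a share of all actin TPM, Actb made up 78.1%, 67.9% and 69.7% with LIF2i, 58.1%, 38.6% and 37.5% without it, and 63.0%, 45.6% and 42.6% with CK666. Nearly all of the rest was Actg1, so these shares and the ratio carry largely the same information. Summed actin was 7338, 1001 and 1278 TPM with LIF2i, 6459, 3377 and 4131 TPM without it, and 4397, 1984 and 3113 TPM with CK666. Summed actin thus rose 3.37-fold and 3.23-fold on withdrawal in replicates 2 and 3 but was 0.880 times as high in replicate 1. CK666 cells had 0.681, 0.587 and 0.754 times the summed actin of the matched control without LIF2i.

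**Figure D3:**
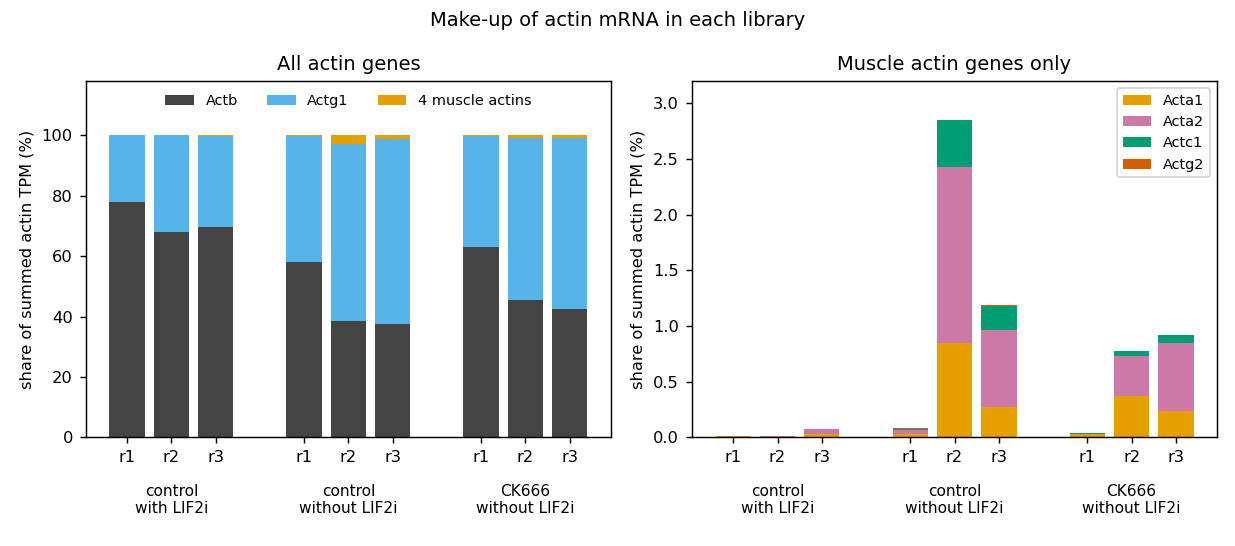
Make-up of actin mRNA as a percentage of summed actin TPM in each library (r1 to r3, replicate numbers), for all actin genes on the left and for the muscle actins alone, on a finer scale, on the right. Actg1 takes a larger share without LIF2i, and the muscle actins reach 2.85% in replicate 2 of the control cells without LIF2i.

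The muscle actins were scarce with LIF2i and were found at a low level after withdrawal, most of all in replicates 2 and 3. Together they made up 0.0104% to 0.0721% of actin TPM with LIF2i, 0.0824%, 2.85% and 1.19% without it, and 0.0363%, 0.776% and 0.916% with CK666. In bulk libraries such as these, a change in the number of cells that express a gene and a change in RNA per cell cannot be told apart.

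Acta2, the smooth muscle actin also used as a marker of myofibroblasts, spans chr19:34241090-34255590 and was the most abundant muscle actin in all 3 control libraries without LIF2i. Its level was 0.505, 0.104 and 0.535 TPM with LIF2i, which rests on 11, 3 and 6 counts. It reached 2.21, 53.5 and 28.5 TPM without LIF2i and 0.160, 7.18 and 19.0 TPM with CK666. All control libraries without LIF2i lay above all those with it, while the replicate 1 library with CK666, at 4 counts, lay within the range seen with LIF2i. Withdrawal raised Acta2 by 5.95 ± 1.38 (SE) on the log2 scale (adjusted p = 0.0129). The call was lost without replicate 2 (3.94, adjusted p = 0.259) and without replicate 3 (5.11, adjusted p = 0.107). It was also lost when a single library of replicate 2 from either control group, or the replicate 3 library with LIF2i, was left out (adjusted p 0.0602 to 0.104). With no filter on low counts the adjusted p was 0.0841. Without replicate 1 the value was 7.52 (adjusted p = 0.00514).

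Acta1, the skeletal muscle actin, spans chr8:123891769-123894751. It stood at 0.619, 0 and 0.387 TPM with LIF2i, at 1.79, 28.5 and 11.3 TPM without it, and at 1.32, 7.32 and 7.45 TPM with CK666. Neither group without LIF2i overlapped the group with LIF2i, and for CK666 cells 20.5% of all genes lay higher without overlap in this way. Withdrawal raised Acta1 by 4.79 ± 1.07 (SE) on the log2 scale (adjusted p = 0.00781). Without replicate 1 the value was 6.58 (adjusted p = 0.000873), and without replicate 2 it was 3.08 (adjusted p = 0.0292). Leaving out the replicate 2 library with LIF2i gave 3.49, and leaving out the replicate 2 control library without it gave 3.84. The call was lost without replicate 3 (4.63, adjusted p = 0.104) and with no filter on low counts (4.81, adjusted p = 0.0625).

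Actc1, the cardiac actin, spans chr2:114047282-114053548 and was listed at 0 in all 3 libraries with LIF2i. It reached 1.14, 14.1 and 8.83 TPM without LIF2i, or 18, 254 and 152 counts. With CK666 it was 0.117, 0.888 and 2.08 TPM, or 2, 15 and 34 counts. Withdrawal raised Actc1 (adjusted p = 0.000216), and the mean without LIF2i was at least 45.7-fold higher, taking 3 counts per library as the limit that a count of 0 allows. This bound was 27.5-fold without replicate 2 and 63.1-fold without replicate 1. The call held under all 21 alternatives tried. Actc1 had 0 counts with LIF2i and passed the filter through libraries without it, so it had to differ. These alternatives could not have removed the difference and are not read as support.

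Actg2, the enteric smooth muscle actin, spans chr6:83512905-83536265. It had 1, 0 and 3 counts in the control libraries without LIF2i and 0 in the 6 others, and it did not pass the filter on low counts. All of its counts fell on 1 of its 6 annotated transcripts. A count of 0 in each library allows up to 3 counts, so a low level was not detectable at this depth, and no fold is given.

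Of the 6 genes, 5 were tested, and 4 of them, Actg1, Acta1, Acta2 and Actc1, were called as raised on withdrawal, where 21.1% of all tested genes were raised and 40.7% were called in either direction. Acta1, Acta2 and Actc1 had at most 11 counts in any library with LIF2i, so they passed the filter through the libraries without it and had to differ, and the count over tested genes is not read further. Without replicate 1 all 5 were raised (23.7% of all genes), and without the replicate block 4 were raised (13.1%). Groups that did not overlap, with the higher level after withdrawal, were found for the same 4 genes and for 21.5% of all genes.

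**Figure D4:**
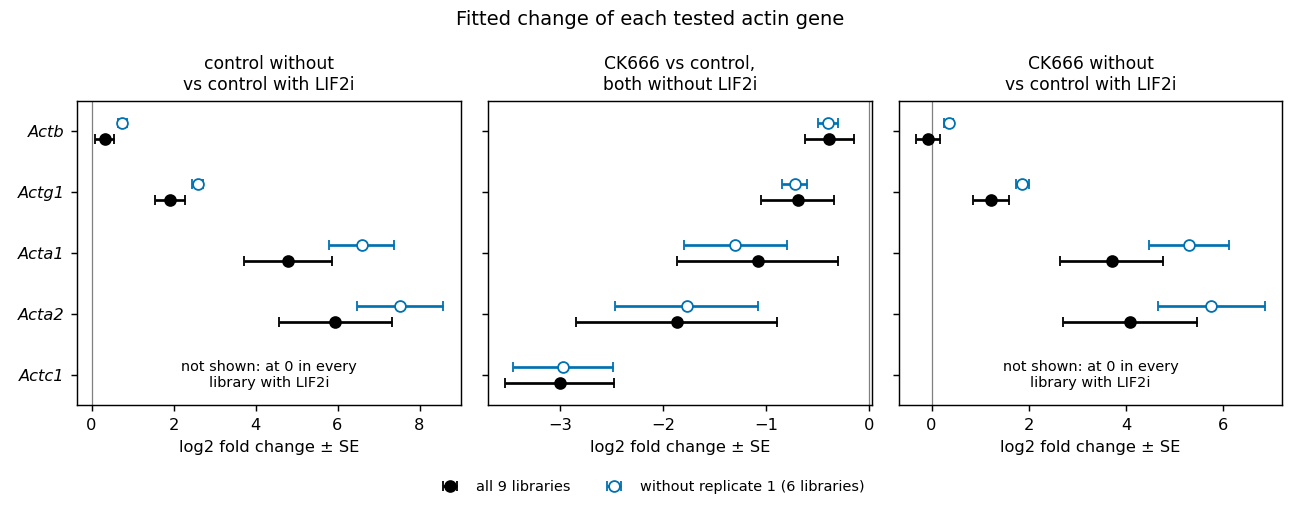
Log2 fold change ± SE of each tested actin gene in the 3 comparisons, from all 9 libraries (filled) and from the 6 libraries of replicates 2 and 3 (open). Actc1 is left out of the panels against cells with LIF2i, where it was at 0, and all values of the middle panel lie below 0.

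CK666 cells had less mRNA of every tested actin than control cells without LIF2i in all 3 pairs, but 1 gene passed the test. Among all genes, 48.6% moved in a single direction in 3 of 3 pairs, counting those that were higher together with those that were lower. Actc1 fell by 3.00 ± 0.53 (SE) on the log2 scale (adjusted p = 0.041). It was the only member called, where 0.894% of all genes were lowered and 2.05% were called either way. Actc1 had 0 counts in every library with LIF2i and 2, 15 and 34 with CK666. It passed the filter with the help of the control libraries without LIF2i, where it was highest. The place of Actc1 beside these shares is therefore not read further. Its TPM ratio to the matched control was 0.0627 in replicate 2 and 0.236 in replicate 3, and replicate 1 had 2 counts against 18. The CK666 and control groups overlapped, because the replicate 1 control library was below the CK666 library of replicate 3. The call held in 11 of 21 alternatives, among them DESeq2 (adjusted p = 6.6e-05), voom (0.0494) and no filter on low counts (0.00586). Without the replicate block the change was -2.97 with an adjusted p of 0.521, in an edgeR fit that called 0 genes (0%; 1251 at an unadjusted p under 0.05). The call held without replicate 1 (-2.97, adjusted p = 0.00924). It was lost without replicate 2 (-2.46, adjusted p = 0.385), without replicate 3 (-3.67, 0.25), and when any single library other than those of replicates 1 and 2 with LIF2i was left out (0.0541 to 0.276).

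The other 4 tested actins gave lower values with CK666 that did not pass the test. Actg1 differed by -0.69 ± 0.35 (SE; adjusted p = 0.322) with TPM ratios of 0.602, 0.538 and 0.694, and its groups did not overlap, as was true in this direction for 7.69% of all genes. Actb differed by -0.39 ± 0.24 (adjusted p = 0.413) with ratios of 0.739, 0.695 and 0.857. Acta1 differed by -1.08 ± 0.78 (adjusted p = 0.493), and its ratios of 0.735, 0.257 and 0.661 were uneven. Its difference was -0.08 without the replicate 2 control library without LIF2i and -1.60 without the replicate 1 control library without LIF2i. Acta2 differed by -1.87 ± 0.97 (adjusted p = 0.347), with 4 counts against 36 in replicate 1 and ratios of 0.134 and 0.667 in replicates 2 and 3. Its difference was -0.73 without the replicate 2 control library without LIF2i and -3.04 without the CK666 library of replicate 3. Without replicate 1, Actb (-0.40, adjusted p = 0.0287) and Actg1 (-0.73, adjusted p = 0.00749) were called together with Actc1, where 6.19% of all genes were lowered. In these 6 libraries without the block, Actb (adjusted p = 0.219) and Actg1 (0.0861) were not called and Actc1 was (0.0144). The same 2 genes were called when only the replicate 1 library with LIF2i was left out, a library that this comparison uses only for the replicate effect and the spread.

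Set against cells with LIF2i, CK666 cells had more Actg1, Acta1 and Actc1 mRNA by the test. Actg1 was higher by 1.22 ± 0.37 (SE) on the log2 scale (adjusted p = 0.0306), with TPM ratios of 1.01, 3.31 and 4.55, so that replicate 1 was nearly level and the groups overlapped. Acta1 was higher by 3.70 ± 1.06 (adjusted p = 0.0253), a value that was 2.49 without the replicate 2 library with LIF2i and 5.39 without the replicate 1 library with LIF2i. Actc1 was called as higher (adjusted p = 0.0026), at least 5.84-fold, a bound that fell to 3.10-fold without replicate 3. Acta2 was higher by 4.08 ± 1.38 and was not called (adjusted p = 0.0562), with the replicate 1 library lower and the others higher than their matched controls. It was called by voom (adjusted p = 0.0221), with protein-coding transcripts only (0.032), and when the replicate 1 library of either control group was left out (0.00927 for the group with LIF2i and 0.0488 for the group without it). DESeq2 did not call it (0.105). When 1 library was left out, the value of Acta2 ranged from 2.65 (CK666, replicate 3) to 5.66 (with LIF2i, replicate 1). These 3 raised genes of 5 tested compare with 19.8% raised and 36.9% called in either direction among all genes, and the same filter limit applies. Without the block 1 member was raised (12.1% of all genes), since Actg1 (adjusted p = 0.147) and Actc1 (0.0534) were no longer called. Without replicate 1 all 5 were raised (22.3%), with Actg1 at 1.87. Actg1 was at 1.88 when only the replicate 1 library with LIF2i was left out. Leaving out replicate 2, replicate 3 or any single library of these numbers from either group ended the call of Actg1 (adjusted p 0.0891 to 0.212), while its value stayed between 0.81 and 1.19. The call of Acta1 ended without replicate 2 (2.57, adjusted p = 0.06), without replicate 3 (0.23), and without any single CK666 library or the replicate 3 library with LIF2i (0.0554 to 0.115). With no filter on low counts neither was called (adjusted p = 0.134 for Actg1 and 0.131 for Acta1). Actb differed by -0.07 ± 0.24 (adjusted p = 0.843), and its sign turned to 0.35 (adjusted p = 0.0176) without replicate 1. The 3 comparisons share libraries and are not independent of each other.

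The annotated transcripts of Actg1 also set replicate 1 apart. Actg1-204, a coding transcript of 1827 bases, was estimated at 0 in the replicate 1 library of every group. In the 6 other libraries it held 27.2% to 35.8% of Actg1 TPM. Actg1-202, the longest form at 1952 bases, held 98.8% to 99.4% in replicate 1 and 63.2% to 71.5% in the others. The divided share did not follow the treatment groups, and its cause was not tested. Forms annotated as retained introns held 0.499% to 1.31% of Actg1 TPM and 0.0176% to 0.841% of Actb TPM. Actb-201 held 80.7% to 95.0% of Actb TPM. A shorter coding form, Actb-208, held 18.3% in the replicate 1 library with LIF2i, or 1049 TPM, and 4.01% to 12.0% elsewhere. Of the exonic bases of Actg1, 5.53% are shared with small RNA genes, and the other actin genes share none with another annotated gene.

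**Figure D5:**
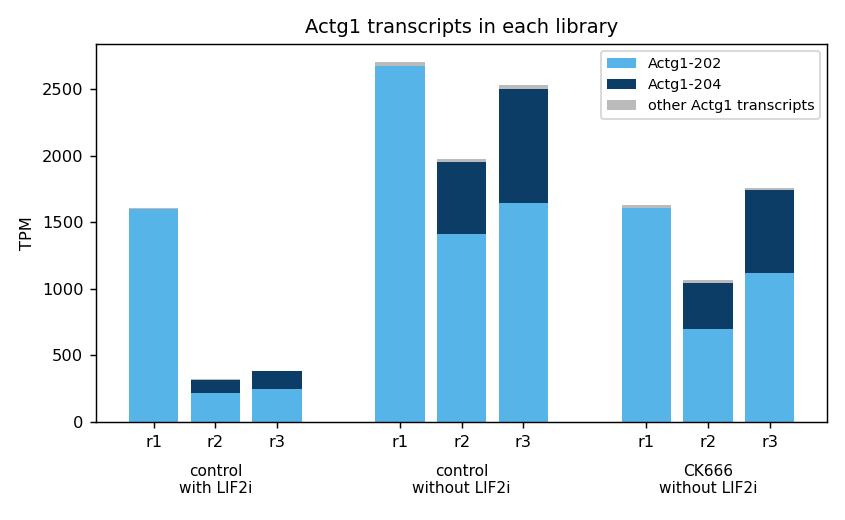
TPM of the Actg1 transcripts Actg1-202, Actg1-204 and all others in each library (r1 to r3, replicate numbers). Actg1-204 is absent from the estimates of replicate 1 in all 3 groups and is a visible part of each bar in replicates 2 and 3.

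The patterns of the tested members were compared across the 9 libraries as log2 CPM after the mean of each replicate number was subtracted. Pearson's r between Actg1 and the muscle actins was 0.94 for Acta1, 0.98 for Acta2 and 0.97 for Actc1, and between Actb and Actg1 it was 0.71. These values describe 3 groups in 9 libraries, which share depth and handling within a replicate number. Among protein-coding genes whose log2 CPM averaged 3 or more, the 3 most like Actb were Gapvd1 (r = 0.99), Zbtb40 (0.98) and Cap1 (0.97), the last an actin monomer-binding protein. Those most like Actg1 were Clasp1, Cnn2, a calponin that binds actin, and Dapk3, each at 0.99. Those nearest to Acta1 were Ascc2, Ccdc71 and Hipk1 (0.99 each). Those nearest to Acta2 were Lysmd3 (0.99), Clasp1 (0.98) and Cacul1 (0.98), and those nearest to Actc1 were Steap3 (0.996), Plekhg2 (0.995) and Pkp2 (0.994).

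Srf, the transcription factor of the CArG box, rose on withdrawal from 33.1 ± 3.71 to 143 ± 8.66 CPM (SD, n = 3), or by 2.10 ± 0.14 (SE) on the log2 scale (adjusted p = 9e-06). With CK666 it stood at 99.4 ± 12.1 CPM, lower in 3 of 3 pairs, and the difference of -0.52 ± 0.13 from control without LIF2i was not called by edgeR (adjusted p = 0.0698). It was called without replicate 1 (-0.59, adjusted p = 0.0306), by DESeq2 (adjusted p = 0.0143) and by voom (0.049), and not without the block (0.373). Of the 7 genes listed as SRF and its coactivators, 6 were tested. On withdrawal Elk3, an ETS-family partner of SRF, was lowered (-1.14 ± 0.26, adjusted p = 0.00723). Mrtfa and Mrtfb gave 0.45 and 0.25 on the log2 scale and were not called (adjusted p = 0.0862 and 0.494). The list counted 1 raised and 1 lowered on withdrawal, where 21.1% of all genes were raised and 19.7% lowered. Without replicate 1 it counted 3 raised and 1 lowered, beside 23.7% and 21% of all genes. With CK666 against control without LIF2i edgeR called 0 of the 6 (2.05% of all genes), with 3 at an unadjusted p under 0.05 (19.7%). DESeq2 and voom each called Srf and Elk1, beside 7.76% and 3.78% of all genes. Without replicate 1 edgeR called 1 raised and 2 lowered, beside 6.12% and 6.19% of all genes. With CK666 against control with LIF2i 1 was raised and 0 lowered, beside 19.8% and 17.1% of all genes.

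Proteins that bind actin monomers were measured in full, with 11 of 11 tested. On withdrawal 4 rose and 2 fell, with a median of 0.30, beside 21.1% raised and 19.7% lowered among all genes. Cap2, a cyclase-associated protein, rose by 2.03 ± 0.39 (SE), the depolymerising factor Dstn by 1.15 ± 0.21, profilin Pfn1 by 0.90 ± 0.15 and cofilin Cfl1 by 0.59 ± 0.16. The twinfilins Twf1 (-0.68 ± 0.14) and Twf2 (-0.69 ± 0.14) fell. Adjusted p-values of these 6 lay between 0.0014 and 0.0186. Without the block 2 rose and 1 fell, beside 13.1% and 10.9% of all genes. With CK666 against control without LIF2i none was called, beside 2.05% of all genes. Without replicate 1 there were 1 raised and 4 lowered, Dstn (-0.74) and Pfn1 (-0.44) among the latter, beside 6.12% and 6.19% of all genes. With CK666 against control with LIF2i 3 rose and 2 fell, beside 19.8% and 17.1%.

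The folding genes encode the chaperonin, prefoldin and actin-modifying enzymes that bring new actin to its native form. Of 17 tested, 4 were called on withdrawal, beside 40.7% of all genes. Of these 3 rose, Pfdn6 (0.96 ± 0.33), Cct3 (0.43 ± 0.14) and Pdcl3 (0.34 ± 0.12), and Pfdn1 fell (-0.56 ± 0.16), with adjusted p-values of 0.0212 to 0.0455. None of these calls held without the block, and the median was 0.08. With CK666 edgeR called 0 against control without LIF2i (2.05% of all genes), where DESeq2 called Cct3 (-0.44, adjusted p = 0.0451; 7.76% of all genes), and 1 rose against control with LIF2i (19.8% of all genes). Of 18 actin-related proteins 10 were tested, and 2 were called on withdrawal. Actr5, a subunit of a chromatin remodeller, rose by 0.68 ± 0.19 (adjusted p = 0.0188), and Actr2, the Arp2 subunit of the complex that CK666 inhibits, fell by 0.60 ± 0.11 (adjusted p = 0.00182). Neither was called without the block, and neither differed between CK666 and control without LIF2i at the threshold (-0.39 and -0.01).

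Markers of other cell types moved beside the muscle actins. Of 8 smooth muscle markers, 5 rose on withdrawal (21.1% of all genes) and 0 fell, with a median of 1.89. The calponin Cnn1 rose by 6.78 ± 0.43 (SE), from 0.367 ± 0.197 to 43.5 ± 14.1 CPM (SD, n = 3), and Tagln, for which 67.9% of exonic bases are shared with other annotated genes, by 5.73 ± 0.51. Lmod1, a leiomodin, rose by 2.78 ± 0.48 and Synpo2 by 2.01 ± 0.35, while Myh11, the smooth muscle myosin, stayed below 1 CPM on average in every group. Summed TPM of the list was 30.0 to 41.1 with LIF2i, 117 to 266 without it, and 70.4 to 143 with CK666, with none of the 8 at 0 throughout a group. With CK666 against control without LIF2i edgeR called 0 (2.05% of all genes). Cnn1 (-1.27 ± 0.30, adjusted p = 0.0597) and Tagln (-1.36 ± 0.38, adjusted p = 0.1) were lower in 3 of 3 pairs, and voom called both (0.0256 and 0.0325; 3.78% of all genes), DESeq2 Cnn1 only (0.0037; 7.76%). Against control with LIF2i 6 rose (19.8% of all genes). The limit given for genes that pass the filter through libraries without LIF2i applies also to markers near 0 with LIF2i, Cnn1 and Myod1 among them.

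Of 15 striated muscle markers, 10 were tested, and 3 rose and 3 fell on withdrawal, with a median of -0.04, beside 21.1% raised and 19.7% lowered among all genes. Myh6, a cardiac myosin, rose by 2.44 ± 0.31 (SE) and Myh3, an embryonic skeletal myosin, by 1.63 ± 0.38. Myod1, a skeletal muscle regulator, stood at 0 in every library with LIF2i and at a mean of 0.576 CPM without it. It passed the filter only through libraries without LIF2i and had to differ, so its place among the 3 is not read further. The light chain Mylpf fell by 3.60 ± 0.46, from 25.3 to 2.12 CPM, and Mybpc3 (-2.90) and Nkx2-5 (-2.45) fell too. The summed level of the list was higher with LIF2i (170 to 195 TPM) than without it (27.0 to 41.1) or with CK666 (23.7 to 51.0). Myod1 and Tnnt3 were at 0 in all libraries with LIF2i, and Myl2 in all with CK666. With CK666 0 were called against control without LIF2i (2.05% of all genes), and 2 rose and 3 fell against control with LIF2i, beside 19.8% and 17.1% of all genes.

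Of 7 fibroblast markers, 6 were tested and 4 rose on withdrawal, Col1a2 by 3.42 ± 0.87 (SE), Dcn by 3.11 ± 1.05, Thy1 by 2.32 ± 0.29 and Col1a1 by 1.01 ± 0.36, beside 21.1% of all genes. Without the block 2 rose (13.1% of all genes), and without replicate 1 there were 3 raised (23.7%) and 1 lowered (21%). Their summed level was 6.34 to 13.4 TPM with LIF2i, 25.2 to 34.8 without it, and 16.0 to 25.7 with CK666, with none at 0 throughout a group. With CK666 0 were called against control without LIF2i (2.05%), and 3 rose against control with LIF2i (19.8%). Of 7 embryonic stem cell markers, 5 fell (19.7% of all genes) and 1, Utf1, rose (21.1%) on withdrawal. Esrrb fell (-4.95 ± 0.44), as did Zfp42 (-4.22 ± 0.31), while Pou5f1 was not called (-0.24 ± 0.23, adjusted p = 0.423). With CK666 0 of the stem cell markers were called against control without LIF2i (2.05%). Without replicate 1 there were 2 raised and 1 lowered, beside 6.12% and 6.19% of all genes. Over the 8 lists beside the actins, 75 genes were tested between CK666 and control without LIF2i. With edgeR 0 of these passed the adjusted threshold, beside 2.05% of all genes, and 12 had an unadjusted p under 0.05, beside 19.7%. DESeq2 and voom called 4 each, beside 7.76% and 3.78% of all genes. The 0 did not hold in edgeR without replicate 1, where 6.12% of all genes were raised and 6.19% lowered. Raised and lowered genes then numbered 1 and 4 for monomer binding, 0 and 2 for folding, and 1 and 2 for SRF. They numbered 0 and 1 for smooth muscle, 2 and 1 for stem cells, and 0 and 0 for each other list. The part of any other cell type in the actin changes was not tested.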

How the data were processed

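The deposited table of each library lists estimated counts, effective length and TPM for 119414 transcripts, per the file headers. As deposited, the estimated counts carry no normalisation and can be fractional. The deposited TPM values are corrected for effective length and add up to the same total in each library. Effective length is another deposited column and was used for 1 alternative. The submitters' processing notes name FastQC, cutadapt 1.8.1, kallisto and sleuth, and the builds mm10 and GRCh38. The transcript release and the use of strand are not given in the sources used here.

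Counts and TPM were summed per gene with GENCODE M21 (GRCm38). This placed 116640 transcripts (97.7%) in 35896 genes, and the 2774 others, holding 0.895% to 1.08% of counts, were left out. Summed counts were rounded and tested with edgeR 4.0.16 in R 4.3.3 (TMM scaling, expression filter by group, robust quasi-likelihood fit, all 9 libraries, 14648 genes, 4 residual degrees of freedom), with the replicate number as a block. The series' design text calls the replicates paired, and same-numbered libraries deviated together from their group means (r 0.30 to 0.65 over 9 pairs). CPM values are TMM-scaled. A count of 0 allows 3 counts, and such limits cover counting error only. Alternatives used no block, DESeq2 1.42.0 or its size factors, voom from limma 3.58.1, no filter, an effective length offset, protein-coding transcripts only, or fewer libraries. The edgeR step was tested on simulated data.

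All 6 actin genes are named. From each other list up to 4 called genes with the largest change are named, with any gene of lists of 7 or fewer, and for each tested actin the 3 genes most alike. Cfl1, Twf1, Myh11, Myh6, Myh3, Tnnt3 and Myl2 were added after their values were seen. The members and lists were chosen with earlier results of these data known.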

Additional observations from a re-analysis of the deposited data

How the results depend on the processing

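The numbers of calls moved with the pairing by replicate number, the test used, the filter and the libraries. With no replicate block, 3509 genes were called on withdrawal, 2966 for CK666 against control with LIF2i, and 0 for CK666 against control without LIF2i (1251 at an unadjusted p under 0.05). With the block, edgeR called 300 genes in the last of these, DESeq2 1136 and voom 553. The actin genes called without the block were 0 for CK666 against control without LIF2i and 1 against control with LIF2i. Permuting without the block left the log2 ratio at -1.65 and the shares of Actb, Actg1 and Actc1 at -27.2, 25.8 and 0.217 percentage points, with adjusted p-values of 0.0917 (ratio, Actb and Actg1) and 0.131 (Actc1). With no filter on low counts, 2 actin genes were called on withdrawal and 1 for CK666 against control with LIF2i, where 5691 and 5126 of all 22634 tested genes were called, and 565 genes for CK666 against control without LIF2i. Without the block and replicate 1, an alternative chosen after seeing the data, that comparison called 933 genes.

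When replicate numbers or single libraries were left out, genes called ranged from 3099 to 6588 on withdrawal, 0 to 1811 for CK666 against control without LIF2i and 2413 to 6129 against control with LIF2i. Actin genes called ranged from 2 to 5, 0 to 3 and 1 to 5. The withdrawal change of the log2 ratio ranged from -1.80 to -1.52, and those of the shares from -30.8 to -24.7 (Actb), 23.2 to 28.8 (Actg1) and 0.116 to 0.316 (Actc1). With 1 number left out the permutation p cannot go below 0.167 and says nothing about stability. Actb in CK666 against control with LIF2i ranged from -0.31 without replicate 3 to 0.35 without replicate 1, and its sign turned from -0.07 to 0.35 without the replicate 1 library with LIF2i, 0.15 without the replicate 1 CK666 library, and 0.36 without both the block and replicate 1. Causes were not tested. DESeq2 size factors moved the median of all genes by at most 0.018 on the log2 scale.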
